A study of Mus musculus with 9 samples.

Results

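The genes described here build, load, start and protect the DNA replication fork. They were chosen by name: 50 of the 24062 rows of the deposited count table, taken as origin licensing, helicase, polymerase, clamp and chromatin assembly genes and sorted into 12 subcomplexes by their known roles. All 50 passed the filter on low counts and were among the 14223 genes tested. RNA came from mouse embryonic fibroblasts of the C57BL/6 strain, connective tissue cells that divide in culture, harvested 4 days after lentiviral transduction. There were 3 groups of 3 libraries: a control lentivirus (EV in the sample titles), a lentivirus overexpressing p21 (Cdkn1a) and a lentivirus overexpressing p16 (Cdkn2a). Every culture therefore carried a lentivirus, and every sample is labelled non-senescent. The vector's promoter, the transduced share of cells, whether replicates were separate cultures or embryos, and whether the p16 libraries were prepared together with the others are not given in the sources used here. The p-values below measure the spread between these libraries, which may be partly technical. Replicate 3 of each group differed from replicates 1 and 2 in Xist, as given below, so the 3 are not copies of a single RNA sample. A difference in preparation cannot be told apart from the p16 group.

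A cell copies its genome in ordered steps. In G1 the origin recognition complex, with Cdc6 and Cdt1, loads the MCM helicase onto origins, and geminin (Gmnn) later binds Cdt1 and blocks reloading. In S phase the Cdc7-Dbf4 kinase and cyclin-dependent kinases turn the loaded helicase into an active fork with Cdc45 and GINS, polymerase alpha with its primase starts each strand, and polymerases delta and epsilon extend it on the PCNA clamp. p16 inhibits CDK4 and CDK6, p21 inhibits several cyclin-dependent kinases and also binds PCNA, and both act upstream of the E2F transcription factors, for which many of these genes are textbook targets.

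The 2 overexpressed genes followed their labels in the count table, whose values are given as CPM, counts scaled to each library's effective total. Cdkn1a stood at 349.8, 375 and 356 CPM in EV, 1773, 1429 and 1612 in p21 and 371, 379 and 367 in p16. Cdkn2a stood at 36.9, 42.2 and 34.7 CPM in EV, 48.1, 47.4 and 43.98 in p21 and 1927, 1576 and 1691 in p16. Each inhibitor was thus high in its own 3 libraries. Library totals ran from 44455730 to 63152239 counts, and no replication gene fell below 186 counts in any library. The third replicate of each group stood apart in Xist, at 181 to 251 CPM against at most 6.96 CPM in replicates 1 and 2. Fibroblast markers (11 genes) summed to 27990 to 31790 CPM in EV, 31340 to 33250 in p21 and 31620 to 34170 in p16, although Dcn, Fap and Lum were each at most 3.35 CPM in EV. Col1a1, Col1a2 and Vim carry most of that sum; with p21, 4 of the 11 rose and 2 fell, Pdgfra by 49.8% and Col3a1 by 20.1%, and with p16 edgeR called 0 (4 higher and 1 lower at an unadjusted p under 0.05, 2 higher and 0 lower by DESeq2, 0 by limma-voom, 5 higher and 1 lower with the replicate block). Macrophage and leukocyte markers (15 genes, Cd3e at 0) summed to 23.4 to 37.2 CPM in EV, 42.1 to 56.7 in p21 and 30.97 to 57.3 in p16, and 6 of the 12 tested rose with p21 and 0 with p16 by edgeR (3 at an unadjusted p under 0.05, 2 by DESeq2, 0 by limma-voom, 5 with the block). Skeletal muscle markers (6 genes, Ckm at 0) summed to 217 to 225, 586 to 673 and 326 to 345 CPM in the same order. Acta1 and Des carry nearly all of that sum, and Myod1, Myog and Myf5 were each at most 0.103 CPM. Acta1 and Des both rose with p21 (edgeR adjusted p = 1.34e-08 and 4.91e-07) and with p16 (edgeR adjusted p = 3.96e-04 and 6.93e-04). Neural markers (5 genes, Rbfox3 and Olig2 at 0) summed to 66.8 to 92.1, 67.7 to 98.5 and 66.2 to 95.4 CPM in that order. Endothelial markers (5 genes) summed to 2.69 to 4.05, 4.03 to 4.65 and 3.65 to 3.83 CPM. Epithelial markers (6 genes) summed to 12.9 to 15.7, 15.99 to 16.5 and 13.2 to 14.5 CPM. The part of these markers in the results below was not tested.

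With p21, 47 of the 50 replication genes fell against EV and none rose, with Orc4, Gins4 and Rpa1 not called (edgeR's quasi-likelihood test, Benjamini-Hochberg adjusted p under 0.05 over all genes tested). Among all genes tested, 20.1% were called lower and 19.8% higher. The 47 falls were between 10.3% and 45.0%, with a median of 24.4%, so they were broad but modest in size. The median log2 fold change of the 50 genes was -0.40, beside 0.00 over all genes tested. In 48 of the 50, all 3 p21 libraries lay below all 3 EV libraries, which held for 25.0% of all genes tested, and the reverse held for none, beside 24.2%. With the replicate number as a block, 47 of the 50 were again lower and none higher, beside 24.2% and 24.0% of all genes tested. The 0 rises also stood at an unadjusted p under 0.05, in DESeq2 and in limma-voom. Scaling by library totals alone left 47 falls but turned the split over all genes from 2816 higher and 2865 lower to 2173 higher and 3734 lower. In bulk RNA, fewer cells in a given cell cycle phase and less RNA per cell cannot be told apart.

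With p16, 35 of the 50 fell and none rose, where 5.56% of all genes tested were called lower and 5.8% higher. These falls ran from 9.37% to 31.4%, with a median of 20.2%, and the median log2 fold change of the 50 genes was -0.25. The 3 p16 libraries lay below all 3 EV libraries in 42 of the 50, beside 16.6% of all genes tested, and the reverse in none, beside 16.1%. At an unadjusted p under 0.05, 44 were lower and 0 higher, and DESeq2 called 37 and limma-voom 35 lower and neither any higher. Same-numbered libraries of the groups deviated together. With the replicate number as a block 43 of the 50 were lower and none higher, beside 10.1% and 11.3% of all genes tested. All 35 of the calls above were among these 43. Calls given below as lost on leaving out a library refer to the fit without the block. With the block, the p16 fall had an edgeR adjusted p of 0.00327 in Orc1, 0.00747 in Orc3, 0.00419 in Mcm6 and 0.00460 in Dbf4. With replicates 1 and 2 alone, 31 were lower.

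**Figure D1:**
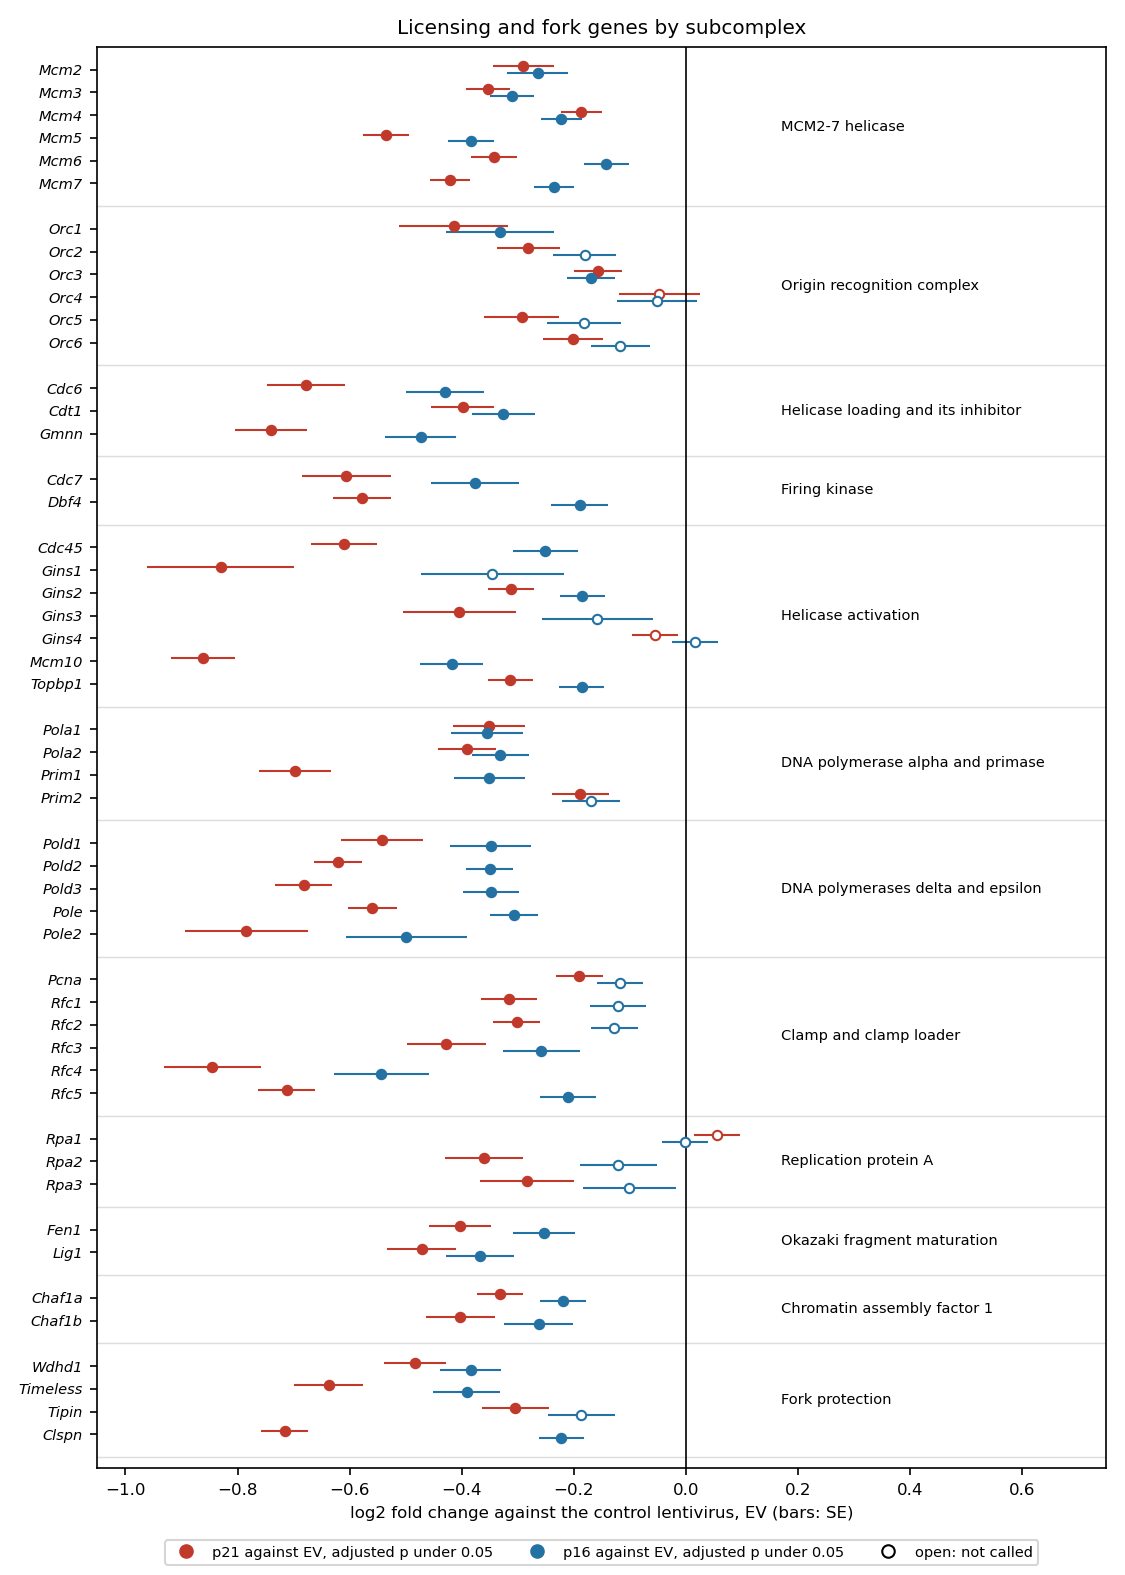
Log2 fold change against EV (horizontal axis) of the 50 replication genes, ordered by subcomplex, with p21 in red and p16 in blue; bars are standard errors from the edgeR fit over 3 libraries a group, and open points did not pass an adjusted p of 0.05. Nearly all points lie left of 0, from -0.86 for Mcm10 with p21 to 0.06 for Rpa1 with p21, and Orc4, Gins4 and Rpa1 are open in both colours.

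Because these genes moved together, their promoters were read for short motifs. RefSeq windows (250 bases before to 50 after the start, GRCm38.p6, which is mm10) were found for 41 of the 50, and there were none for Gins1, Gins2, Gins4, Gmnn, Mcm4, Pole, Prim2, Rfc2 and Tipin. The E2F-type motifs searched on both strands were TTTGGCGC, TTTCCCGC, TTTGGCGG and TTTCGCGC; TTTGGCGC and TTTGGCGG share all but the last base, and TTTGGCGC and TTTCGCGC end in the palindrome GCGC, so that they can overlap on opposite strands. At least 1 of them was in the windows of 21 of the 41 genes (51.2%), beside 510 of 10565 tested genes with a window (4.83%) and 2.37% of all 32851 windows. CCAAT was in 56.1% of the 41, 42.7% of tested genes and 37.4% of all windows. The CHR-type motif TTTGAA was in 17.1%, 14% and 17.9%. A match is a description of letters, not of binding, and these windows carry no measurement of a factor.

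The stretches that follow show matches in genes of different steps, 5′ to 3′ on the gene's strand, with the E2F-type matches in capitals: the helicase genes Mcm5 (chr8:75109326-75109397, plus strand) and Mcm6 (chr1:128359715-128359845, minus strand), in both of which TTTGGCGC and TTTCGCGC overlap on opposite strands, the polymerase gene Pola1 (chrX:93632256-93632323, minus strand), the checkpoint mediator gene Clspn (chr4:126556829-126556896, plus strand) and Rpa1 (chr11:75348563-75348630, minus strand), a gene that was not called in any comparison.
Mcm5: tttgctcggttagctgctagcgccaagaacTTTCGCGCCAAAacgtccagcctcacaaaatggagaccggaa
Mcm6: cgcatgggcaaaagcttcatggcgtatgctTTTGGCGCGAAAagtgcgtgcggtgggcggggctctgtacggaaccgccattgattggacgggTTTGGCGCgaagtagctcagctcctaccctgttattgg
Pola1: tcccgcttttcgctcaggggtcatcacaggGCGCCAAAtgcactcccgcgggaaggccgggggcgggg
Clspn: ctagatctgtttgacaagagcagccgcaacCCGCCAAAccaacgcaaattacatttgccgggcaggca
Rpa1: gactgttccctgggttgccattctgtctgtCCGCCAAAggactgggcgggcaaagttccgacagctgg
The first matched base lay at -153 from the RefSeq start in Mcm5, at -110 and -47 in Mcm6, at -138 in Pola1, at -121 in Clspn and at -217 in Rpa1. Orc4, likewise not called, held TTTGGCGG, while the windows of Mcm10, Rfc4 and Rfc5, which fell by some of the widest margins with p21, held none of the 4 E2F-type motifs. Matches stood in genes that fell and in genes that were not called, and some genes that fell had none. Of the genes with a window, only Orc4 and Rpa1 were not called with p21, too few to compare with those that fell. Whether a match goes with a fall was not tested.

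Licensing starts with the origin recognition complex, 6 subunits that mark origins. With p21, 5 of the 6 fell (median log2 fold change -0.24) and with p16 2 of the 6, Orc1 and Orc3 (median -0.175). Orc1, the ATPase subunit whose level changes through the cell cycle, stood at 14.2, 14.2 and 14.9 CPM in the EV libraries, 10.2, 12.2 and 10.2 with p21 and 11.6, 12.7 and 9.96 with p16. All p21 and p16 libraries were below EV, but p21 and p16 overlapped. Its log2 fold change was -0.41 ± 0.097 with p21 (edgeR adjusted p = 0.00474) and -0.33 ± 0.096 with p16 (edgeR adjusted p = 0.0443). Orc4, a core subunit, was at 38.4, 37.3 and 37.2 CPM in EV, 37.3, 33.2 and 38.6 with p21 and 40.5, 35.4 and 33.01 with p16. These groups overlapped, and the 95% confidence interval of its log2 fold change was -0.20 to 0.11 with p21 (edgeR adjusted p = 0.633) and -0.21 to 0.10 with p16. Orc2, Orc5 and Orc6 fell with p21 by 17.7%, 18.4% and 13.05%. With p16 they were not called (edgeR adjusted p = 0.0596, 0.0974 and 0.177); with the replicate block Orc2 and Orc5 were (edgeR adjusted p = 0.00757 and 0.0473). Orc3 fell by 10.3% with p21 and 11.1% with p16. Its p21 call was lost on leaving out EV replicate 3 (edgeR adjusted p = 0.0655), and its p16 call on leaving out EV replicates 1 and 3 and p16 replicates 1, 2 and 3 in turn (edgeR adjusted p up to 0.106) and on replicates 1 and 2 alone (adjusted p = 0.0632). The p16 call of Orc1 was lost on leaving out EV replicates 1, 2 and 3, p21 replicate 1 and p16 replicates 1 and 3 in turn (edgeR adjusted p up to 0.137) and on replicates 1 and 2 alone (adjusted p = 0.168).

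Helicase loading needs Cdc6 and Cdt1, and geminin opposes it. All 3 genes fell with both inhibitors, with a median log2 fold change of -0.68 with p21 and -0.43 with p16. Cdt1 stood at 29.2, 31.2 and 29.01 CPM in EV, 22.4, 23.98 and 21.5 with p21 and 25.3, 23.1 and 23.02 with p16. The EV libraries were all highest, and p21 and p16 overlapped. Its log2 fold change was -0.40 ± 0.057 with p21 (edgeR adjusted p = 1.50e-04) and -0.33 ± 0.057 with p16 (edgeR adjusted p = 0.00380). Gmnn, the inhibitor, was at 21.05, 20.02 and 19.01 CPM in EV, 12.6, 11.5 and 11.8 with p21 and 15.02, 14.4 and 13.9 with p16. Here the 3 groups did not overlap, in the order EV, p16, p21. Its log2 fold change was -0.74 ± 0.065 with p21 (edgeR adjusted p = 3.00e-06) and -0.47 ± 0.064 with p16 (edgeR adjusted p = 9.01e-04). Cdc6, the ATPase that brings the helicase to the origin, stood at 23.8, 23.3 and 21.98 CPM in EV, 13.3, 14.2 and 15.7 with p21 and 18.01, 16.2 and 17.1 with p16, a fall of 37.5% with p21 and 25.8% with p16. Its groups too did not overlap.

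The balance between the RNA of the loader gene Cdt1 and that of its inhibitor can be read within each library. The counts do not measure the proteins. The ratio of Cdt1 to Gmnn counts was 1.39 to 1.56 in EV, 1.60 to 1.68 with p16 and 1.78 to 2.09 with p21. The groups did not overlap, and the mean ratio was 1.27 times EV with p21, 1.11 times EV with p16 and 1.15 times p16 with p21. Each of these 3 differences had an exact two-sided permutation p of 0.1, the smallest that 3 against 3 libraries allow, and 0.18 after adjustment over the 18 ratio tests made. No ratio test could therefore pass 0.05.

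The MCM2-7 helicase unwinds DNA ahead of the fork, and its 6 subunits form 1 ring. All 6 fell with p21 (median log2 fold change -0.35) and all 6 with p16 (median -0.25). Mcm5 moved most with p21: 114, 118 and 107 CPM in EV (113 ± 5.32, SD, n = 3), 79.5, 78.3 and 76.6 with p21 (78.1 ± 1.46) and 86.98, 87.03 and 86.2 with p16 (86.7 ± 0.458). The 3 groups did not overlap. Its log2 fold change was -0.54 ± 0.041 with p21 (edgeR adjusted p = 1.05e-06) and -0.38 ± 0.041 with p16 (edgeR adjusted p = 2.81e-04). Mcm4 moved least with p21, at 124, 123 and 117 CPM in EV, 108, 106 and 105 with p21 and 106, 105 and 101 with p16. All treated libraries lay below EV, and the p21 and p16 ranges overlapped, with falls of 12.2% and 14.3%. Mcm2, Mcm3, Mcm6 and Mcm7 fell with p21 by 18.2%, 21.7%, 21.1% and 25.3%, and with p16 by 16.8%, 19.4%, 9.37% and 15.03%. Mcm6 had the smallest p16 fall of the ring, and that call was lost on leaving out EV replicates 1 and 2, p21 replicate 1 and p16 replicates 2 and 3 in turn (edgeR adjusted p up to 0.161) and with no filter on low counts (adjusted p = 0.0504) and on replicates 1 and 2 alone (adjusted p = 0.0601).

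**Figure D2:**
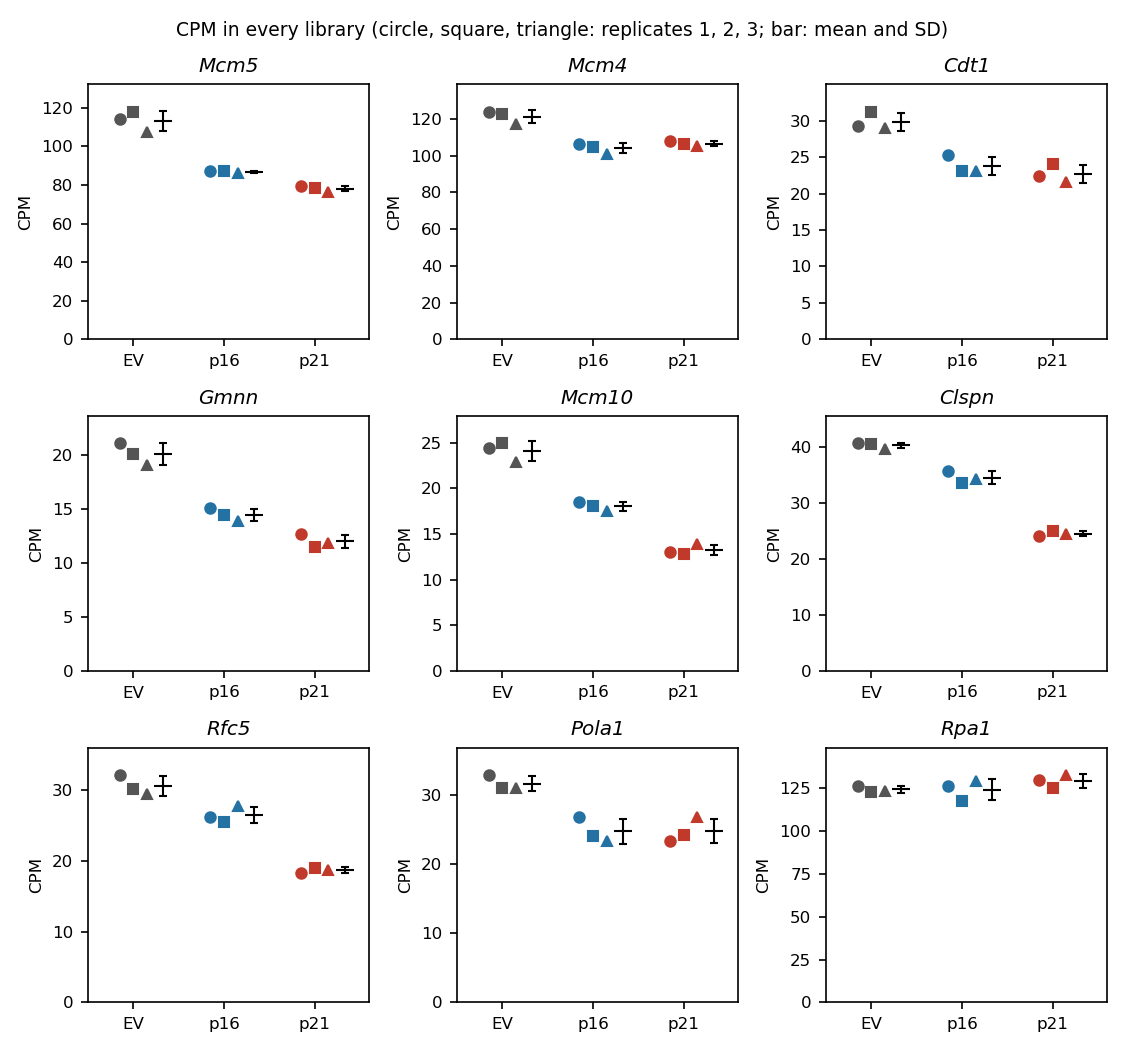
CPM (vertical axis, from 0) of 9 replication genes in each library, with EV in grey, p16 in blue and p21 in red; circle, square and triangle are replicates 1, 2 and 3, and the black bar is the mean with the SD of 3 libraries. Gmnn, Mcm10 and Clspn step down from EV to p16 to p21, Mcm4, Cdt1 and Pola1 are low to a like extent with p16 and p21, and Rpa1 stays between 117 and 133 CPM.

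Origin firing begins with the kinase Cdc7 and its activating subunit Dbf4, both of which fell with p21 and with p16. Cdc7 stood at 13.4, 12.97 and 12.5 CPM in EV, 7.92, 9.07 and 8.64 with p21 and 10.8, 9.73 and 9.45 with p16. The groups did not overlap, and the log2 fold change was -0.61 ± 0.079 with p21 (edgeR adjusted p = 7.90e-05) and -0.38 ± 0.078 with p16 (edgeR adjusted p = 0.00980). Dbf4 was at 60.6, 58.2 and 59.5 CPM in EV, 36.9, 41.5 and 41.1 with p21 and 51.6, 54.1 and 50.5 with p16. It too kept the order EV, p16, p21 with no overlap, but its log2 fold change was -0.58 ± 0.051 with p21 (edgeR adjusted p = 3.46e-06) and -0.19 ± 0.051 with p16 (edgeR adjusted p = 0.0323). The ratio of Dbf4 to Cdc7 counts was 4.49 to 4.74 in EV, 4.57 to 4.75 with p21 and 4.78 to 5.56 with p16. It overlapped between p21 and EV (exact two-sided permutation p = 0.4) and was higher in all p16 libraries than in EV, by 1.14 times (exact permutation p = 0.1). The p16 call of Cdc7 was lost on leaving out p16 replicate 2 (edgeR adjusted p = 0.0512), and that of Dbf4 on leaving out EV replicates 1, 2 and 3 and p16 replicates 1, 2 and 3 in turn (edgeR adjusted p up to 0.116) and on replicates 1 and 2 alone (adjusted p = 0.0830).

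Helicase activation adds Cdc45 and the 4 GINS subunits to the ring, with Topbp1 and Mcm10 as factors of that step. With p21 6 of the 7 fell (median log2 fold change -0.40), and with p16 4 of the 7 (median -0.19). Mcm10 fell furthest of all 50 with p21: 24.4, 24.95 and 22.9 CPM in EV, 13.04, 12.9 and 13.9 with p21 and 18.5, 18.04 and 17.5 with p16. No groups overlapped, and its log2 fold change was -0.86 ± 0.057 with p21 (edgeR adjusted p = 3.73e-07) and -0.42 ± 0.056 with p16 (edgeR adjusted p = 8.61e-04). Its count ratio to the ring subunit Mcm2 was 0.227 to 0.244 in EV, 0.202 to 0.217 with p16 and 0.145 to 0.183 with p21 (exact two-sided permutation p = 0.1 for each pair of groups). Gins4 was not called, at 26.6, 26.5 and 26.9 CPM in EV, 25.2, 26.1 and 25.7 with p21 and 26.8, 27.4 and 26.7 with p16, with a 95% confidence interval of its log2 fold change of -0.14 to 0.03 with p21 (edgeR adjusted p = 0.305). Its p21 libraries lay just below EV, and its p16 libraries overlapped EV.

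The GINS subunits, which work as 1 complex, spread widely among themselves. Gins1, which held the lowest count of the 50 genes in any 1 library, was at 8.21, 6.72 and 7.63 CPM in EV, 4.03, 4.22 and 4.44 with p21 and 7.09, 5.66 and 4.99 with p16. The p21 libraries were all lowest, and p16 overlapped EV. It fell by 43.7% with p21, where Gins2 fell by 19.4% and Gins3 by 24.4%. With p16, Gins2 fell by 12.04%, while Gins1 (edgeR adjusted p = 0.105) and Gins3 (edgeR adjusted p = 0.345) were not called; the block gave Gins1 an edgeR adjusted p of 0.0239. Cdc45, the other partner of the ring, fell by 34.5% with p21 and 15.97% with p16, and Topbp1, which recruits Cdc45, by 19.5% and 12.1%. The p16 calls were lost for Cdc45 on leaving out EV replicate 1 and p16 replicate 2 in turn (edgeR adjusted p up to 0.0800), for Gins2 on leaving out EV replicate 3 and p16 replicate 2 in turn (edgeR adjusted p up to 0.0596) and on replicates 1 and 2 alone (adjusted p = 0.0544) and for Topbp1 on leaving out EV replicate 1 (edgeR adjusted p = 0.0574). Of Gins2's exon bases, 67.3% lie under Gse1 on the opposite strand, and the library kit does not mark strand, so reads of these genes cannot be told apart. The same holds for smaller shares of Rfc2 (15.1%), Rfc4 (12.7%), Orc1 (10.8%), Rfc5 (10.7%) and Mcm7 (8.7%).

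Polymerase alpha and primase lay down the RNA-DNA primers. All 4 subunits fell with p21 (median log2 fold change -0.37) and 3 of the 4 with p16 (median -0.34). Prim1, the catalytic primase subunit, was at 20.97, 19.998 and 21.1 CPM in EV, 12.95, 12.9 and 12.4 with p21 and 17.5, 16.1 and 15.1 with p16. Its groups did not overlap, and its log2 fold change was -0.70 ± 0.064 with p21 (edgeR adjusted p = 4.52e-06) and -0.35 ± 0.063 with p16 (edgeR adjusted p = 0.00452). Prim2, the large primase subunit, was at 27.1, 27.1 and 25.8 CPM in EV, 23.7, 24.02 and 22.6 with p21 and 23.4, 25.03 and 22.7 with p16. All treated libraries were below EV; it fell by 12.3% with p21 and was not called with p16 (edgeR adjusted p = 0.0511, and 0.0200 with the block). Pola1, the polymerase subunit, was low with both: 32.9, 30.97 and 31.04 CPM in EV, 23.4, 24.2 and 26.8 with p21 and 26.8, 24.1 and 23.3 with p16, falls of 21.6% and 21.8%. Pola2, its accessory subunit, fell by 23.7% and 20.5%.

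Polymerases delta and epsilon synthesize the bulk of the lagging and the leading strand. All 5 subunits fell with both inhibitors. Their median log2 fold change was -0.62 with p21 and -0.35 with p16, and the median by library was -0.64, -0.65 and -0.64 in the p21 libraries and -0.35, -0.32 and -0.37 in the p16 libraries. Pole2, the second epsilon subunit, was at 12.9, 11.6 and 11.2 CPM in EV, 6.94, 6.51 and 7.25 with p21 and 9.92, 7.30 and 8.07 with p16. The groups did not overlap, and its log2 fold change was -0.78 ± 0.110 with p21 (edgeR adjusted p = 1.33e-04) and -0.50 ± 0.108 with p16 (edgeR adjusted p = 0.0122). Pold1, the catalytic delta subunit, was at 49.5, 54.7 and 52.01 CPM in EV, 33.3, 39.9 and 34.1 with p21 and 39.9, 38.4 and 44.4 with p16. All treated libraries lay below EV, with falls of 31.4% and 21.5%, and p21 and p16 overlapped. Pold2, Pold3 and Pole fell by 34.97%, 37.7% and 32.1% with p21 and by 21.6%, 21.5% and 19.1% with p16. The p16 call of Pold1 was lost on leaving out p16 replicate 2 (edgeR adjusted p = 0.0515), and that of Pole2 on leaving out EV replicate 1 and p16 replicate 2 in turn (edgeR adjusted p up to 0.0597).

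PCNA is the sliding clamp, and the 5 Rfc subunits form the loader that opens it. All 6 genes fell with p21 (median log2 fold change -0.37), 3 of the 6 with p16 (median -0.17). Pcna itself moved least, at 135, 135 and 129 CPM in EV, 119, 116 and 115 with p21 and 127, 125 and 116 with p16. Its treated libraries were all below EV; it fell by 12.4% with p21 (edgeR adjusted p = 0.00298) and was not called with p16 (edgeR adjusted p = 0.0888, and 0.0155 with the block). Rfc4 moved most: 14.5, 13 and 14.7 CPM in EV, 7.29, 7.89 and 8.36 with p21 and 9.79, 8.89 and 10.4 with p16. No groups overlapped, and its log2 fold change was -0.84 ± 0.086 with p21 (edgeR adjusted p = 1.08e-05) and -0.54 ± 0.085 with p16 (edgeR adjusted p = 0.00214). Rfc5, another small loader subunit, was at 32.1, 30.2 and 29.4 CPM in EV, 18.2, 19.03 and 18.7 with p21 and 26.2, 25.4 and 27.7 with p16, a fall of 38.98% with p21 and 13.6% with p16. Its groups did not overlap either. Rfc1, the large subunit, Rfc2 and Rfc3 fell with p21 by 19.6%, 18.9% and 25.7%. With p16, Rfc3 fell by 16.4%, and Rfc1 and Rfc2 were not called (edgeR adjusted p = 0.143 and 0.0710, and 0.0472 and 0.0488 with the block). The p16 call of Rfc3 was lost on leaving out EV replicates 1 and 2 and p16 replicates 1, 2 and 3 in turn (edgeR adjusted p up to 0.136), and that of Rfc5 on leaving out EV replicates 1 and 2 and p16 replicates 1 and 2 in turn (edgeR adjusted p up to 0.0992).

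Replication protein A coats single-stranded DNA in replication and in repair. With p21, Rpa2 and Rpa3 fell and Rpa1 was not called, and with p16 none of the 3 was called (0 also at an unadjusted p under 0.05, in DESeq2 and in limma-voom). Rpa1, the large subunit, was at 126, 123 and 123 CPM in EV, 129, 125 and 133 with p21 and 126, 117 and 129 with p16. All 3 groups overlapped, and the 95% confidence interval of its log2 fold change was -0.03 to 0.14 with p21 (edgeR adjusted p = 0.312). Rpa2, the middle subunit, was at 28.3, 29.9 and 25.8 CPM in EV, 23.4, 22.1 and 20.04 with p21 and 27.3, 24.7 and 25.5 with p16. Its p21 libraries lay below all others, and p16 overlapped EV; its log2 fold change was -0.36 ± 0.069 with p21 (edgeR adjusted p = 0.00132). Rpa3, the small subunit, fell by 17.9% with p21, a call lost on leaving out EV replicates 1 and 2 and p21 replicates 1 and 2 in turn (edgeR adjusted p up to 0.0610).

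Okazaki fragments are trimmed by the Fen1 nuclease and joined by the ligase Lig1, and both genes fell with both inhibitors. Lig1 stood at 54.7, 60.9 and 62.9 CPM in EV, 40.5, 43.98 and 44.4 with p21 and 46.9, 43.3 and 48.2 with p16. Fen1 was at 47.4, 47.1 and 42.2 CPM in EV, 33.5, 35.3 and 34.8 with p21 and 38.1, 40.4 and 36.2 with p16. In both genes every treated library was below EV, with p21 and p16 overlapping in Lig1 only. The log2 fold change of Lig1 was -0.47 ± 0.062 with p21 (edgeR adjusted p = 7.63e-05) and -0.37 ± 0.061 with p16 (edgeR adjusted p = 0.00302), and that of Fen1 was -0.40 ± 0.056 with p21 (edgeR adjusted p = 1.26e-04) and -0.25 ± 0.056 with p16 (edgeR adjusted p = 0.0131). The p16 call of Fen1 was lost on leaving out EV replicates 1 and 2 and p16 replicate 3 in turn (edgeR adjusted p up to 0.0589), and 84.2% of its exon bases lie under Tmem258 and Gm10143 on the opposite strand.

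Chromatin assembly factor 1 places new histones behind the fork, and its subunit genes Chaf1a and Chaf1b fell with both inhibitors. Chaf1b was at 20.3, 21.4 and 19.1 CPM in EV, 15.3, 15.4 and 15.3 with p21 and 16.3, 17.99 and 16.4 with p16. Chaf1a was at 64.8, 62.5 and 65.8 CPM in EV, 50.8, 50.2 and 52.5 with p21 and 55.7, 53.96 and 56.2 with p16. Neither gene's groups overlapped. Chaf1a fell by 20.5% with p21 and 14.1% with p16, and Chaf1b by 24.4% and 16.7%. Their count ratio overlapped between all 3 groups, at 0.29 to 0.343 in EV, 0.291 to 0.308 with p21 and 0.292 to 0.333 with p16. The p16 call of Chaf1b was lost on leaving out EV replicates 1 and 2 and p16 replicates 1 and 3 in turn (edgeR adjusted p up to 0.0798), and 52.5% of the exon bases of Chaf1a lie under Ubxn6 on the opposite strand.

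Fork protection genes hold the helicase to the polymerases and pass on stress signals. All 4 fell with p21 (median log2 fold change -0.56) and 3 of the 4 with p16 (median -0.30). Clspn, the mediator that carries the ATR signal to Chek1, was at 40.7, 40.5 and 39.8 CPM in EV, 24.1, 25.1 and 24.6 with p21 and 35.8, 33.6 and 34.3 with p16. The 3 groups lay far apart for their spread, with a log2 fold change of -0.72 ± 0.041 with p21 (edgeR adjusted p = 1.19e-07) and -0.22 ± 0.040 with p16 (edgeR adjusted p = 0.00482). Tipin was at 38.9, 38.3 and 36.7 CPM in EV, 30.2, 28.1 and 33.8 with p21 and 34.3, 32.8 and 32.99 with p16. Its treated libraries were all below EV and overlapped each other; it fell by 19.03% with p21 and was not called with p16 (edgeR adjusted p = 0.0630, and 0.0153 with the block). Timeless, Tipin's partner, fell by 35.7% with p21 and 23.8% with p16, and Wdhd1, which ties polymerase alpha to the helicase, by 28.5% and 23.4%. Median falls thus ran from -0.24 for the origin recognition complex to -0.68 for the loading genes with p21, and differences between subcomplexes were not tested.

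Set directly against p16, p21 gave lower levels in 20 of the 50 genes and higher levels in none, where 6.91% of all genes tested were called lower and 6.15% higher. The median log2 difference was -0.16, and in 30 of the 50 all p21 libraries lay below all p16 libraries, beside 16.3% of all genes tested, and in none above, beside 14.9%. At an unadjusted p under 0.05, 31 were lower and 0 higher, DESeq2 called 21 and limma-voom 19 lower, and neither called any higher. With the replicate block 26 were lower, the 20 among them, and none higher, beside 11.6% and 11.0% of all genes tested. Without p16 replicate 1 the count was 13. The p21 values reported above against EV and those against p16 share the p21 libraries, as both inhibitors share the EV libraries.

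The widest direct differences were in Rfc5 (-0.50 ± 0.052, edgeR adjusted p = 6.50e-05), Clspn (-0.49 ± 0.041, edgeR adjusted p = 1.36e-05), Gins1, Mcm10 and Dbf4. Mcm10 differed by -0.44 ± 0.057 on the log2 scale (edgeR adjusted p = 3.48e-04) and Dbf4 by -0.39 ± 0.051 (edgeR adjusted p = 4.18e-04). Gins1 differed by -0.48 ± 0.133 (edgeR adjusted p = 0.0316), a call lost on leaving out p21 replicates 1 and 2 and p16 replicates 1 and 2 in turn (edgeR adjusted p up to 0.129) and with only the 2 groups fitted (adjusted p = 0.0504). Cdc45, Prim1, Pold3, Pold2 and Pole, 5 further genes of fork assembly and synthesis, were lower with p21 by 22.04%, 21.3%, 20.7%, 17.1% and 16.1%. Within the helicase ring, Mcm6 and Mcm7 were lower by 12.95% and 12.1%, and Mcm5 by 9.96% (edgeR adjusted p = 0.0302), a call lost on leaving out p21 replicates 1, 2 and 3 and p16 replicates 1, 2 and 3 in turn (edgeR adjusted p up to 0.0965). Among the loading genes, Cdc6 was lower by 15.8%, a call lost on leaving out EV replicates 1 and 2, p21 replicates 1 and 2 and p16 replicates 1 and 3 in turn (edgeR adjusted p up to 0.145) and with only the 2 groups fitted (adjusted p = 0.0657), and Gmnn by 16.9%, lost on leaving out p21 replicate 2 and p16 replicates 1 and 2 in turn (edgeR adjusted p up to 0.0799). Timeless was lower by 15.7%, lost on leaving out p21 replicate 1 and p16 replicates 2 and 3 in turn (edgeR adjusted p up to 0.0902) and on replicates 1 and 2 alone (adjusted p = 0.0522).

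Of the clamp loader and RPA genes, Rfc1, Rfc2, Rfc4 and Rpa2 were also lower with p21 than with p16. The differences were 12.6%, 11.4%, 18.9% and 15.3%. Rfc1 was lost on leaving out p21 replicates 1 and 2 and p16 replicates 1 and 3 in turn (edgeR adjusted p up to 0.102), and Rfc2 on leaving out p21 replicate 3 and p16 replicate 3 in turn (edgeR adjusted p up to 0.0790) and on replicates 1 and 2 alone (adjusted p = 0.115). Rfc4 was lost on leaving out EV replicate 1, p21 replicates 1 and 2 and p16 replicates 1 and 3 in turn (edgeR adjusted p up to 0.148) and by limma-voom (adjusted p = 0.0564) and with only the 2 groups fitted (adjusted p = 0.0644) and on replicates 1 and 2 alone (adjusted p = 0.0710), and Rpa2 on leaving out EV replicate 1, p21 replicates 2 and 3 and p16 replicates 1, 2 and 3 in turn (edgeR adjusted p up to 0.158) and on replicates 1 and 2 alone (adjusted p = 0.0889). Rfc1, Rfc2, Rpa2 and Gins1 were called with p21 and in the direct comparison but not with p16 against EV. With the replicate block, Rfc1 (edgeR adjusted p = 0.0472), Rfc2 (0.0488) and Gins1 (0.0239) were lower with p16 too, and Rpa2 was not called.

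**Figure D3:**
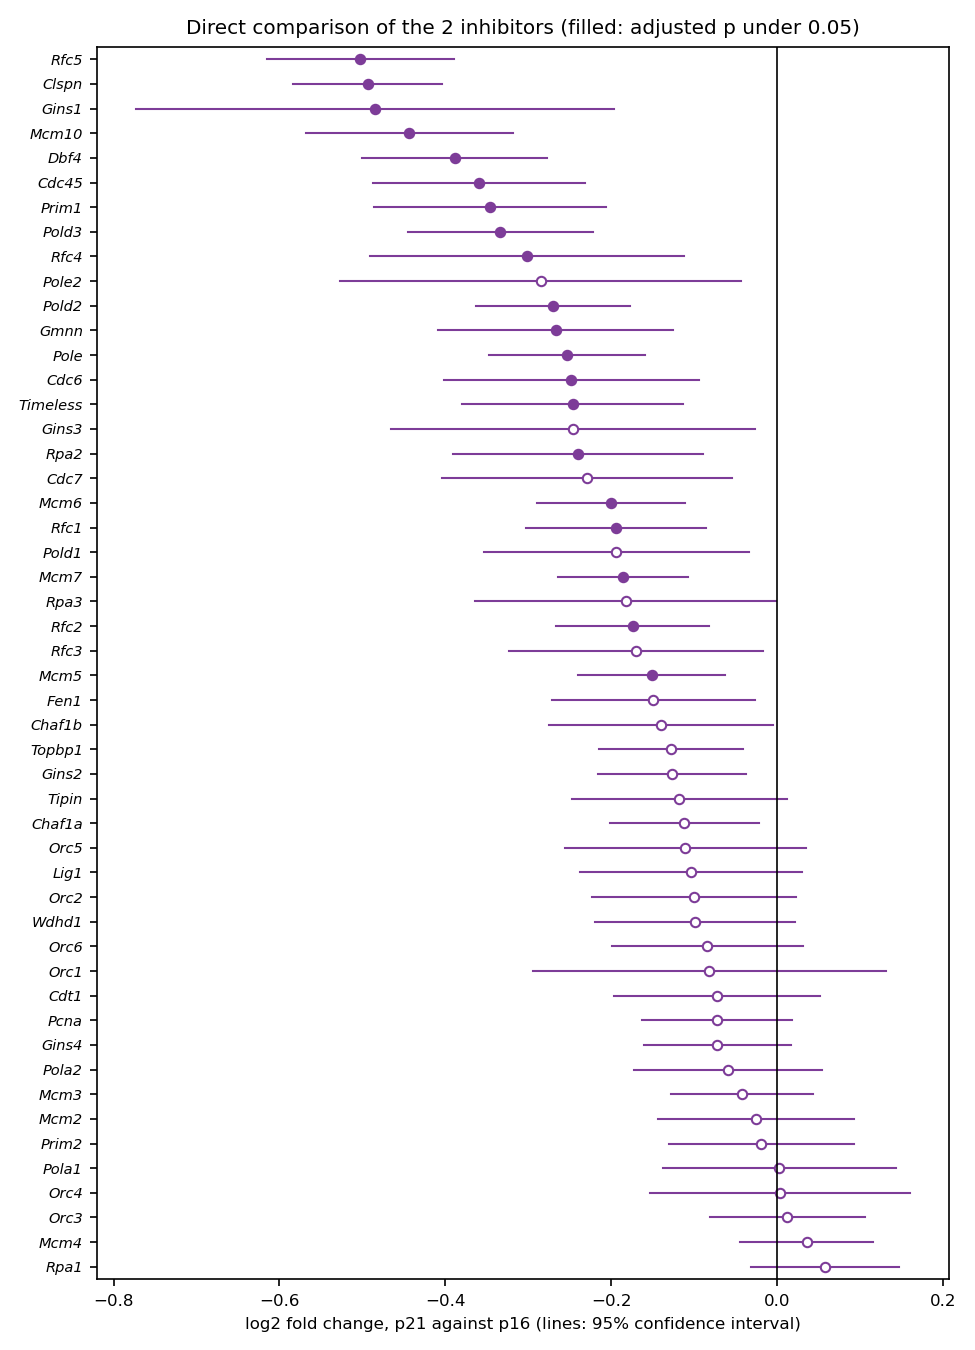
Log2 fold change of p21 against p16 (horizontal axis) for the 50 replication genes in order of size; lines are 95% confidence intervals from the edgeR fit over 3 libraries a group, not adjusted for the number of genes, and filled points passed an adjusted p of 0.05. Values run from -0.50 for Rfc5 to 0.06 for Rpa1, and the 20 filled points all lie left of 0.

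Several genes at the other end of that order were low by similar amounts with either inhibitor. Pola1 differed by 0.00 between p21 and p16 (95% confidence interval -0.14 to 0.14), Mcm4 by 0.04 (-0.04 to 0.12), Mcm2 by -0.03 (-0.14 to 0.09), Mcm3 by -0.04 (-0.13 to 0.04) and Cdt1 by -0.07 (-0.20 to 0.05), all on the log2 scale. The intervals bound the difference but do not show that the inhibitors acted alike. None of the 6 origin recognition genes was called between p21 and p16 (0 at an unadjusted p under 0.05, in DESeq2 and in limma-voom). Neither Okazaki gene was called by edgeR, DESeq2 or limma-voom, with 1 at an unadjusted p under 0.05, and neither chromatin assembly gene, with 2. The block moved 6 genes to a call: Cdc7 (edgeR adjusted p = 0.0441), Topbp1 (0.0123), Pold1 (0.0166), Pole2 (0.0240), Fen1 (0.0299) and Chaf1a (0.0442).

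Read across the 3 comparisons, 16 genes were lower with p21, with p16 and with p21 against p16. They were Mcm5, Mcm6, Mcm7, Cdc6, Gmnn, Dbf4, Cdc45, Mcm10, Prim1, Pold2, Pold3, Pole, Rfc4, Rfc5, Timeless and Clspn. Another 19 were lower with each inhibitor and not called between them, among them Mcm2, Mcm3, Mcm4, Cdt1, Pola1 and Lig1. A further 8 were called with p21 alone: Orc2, Orc5, Orc6, Gins3, Prim2, Pcna, Rpa3 and Tipin. With the replicate block, 5 of these 8 were lower with p16 too: Orc2 (edgeR adjusted p = 0.00757), Orc5 (0.0473), Prim2 (0.0200), Pcna (0.0155) and Tipin (0.0153). For these 8 a difference between p21 and p16 did not pass the threshold, so a call with p21 and none with p16 does not show that they differ.

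**Figure D4:**
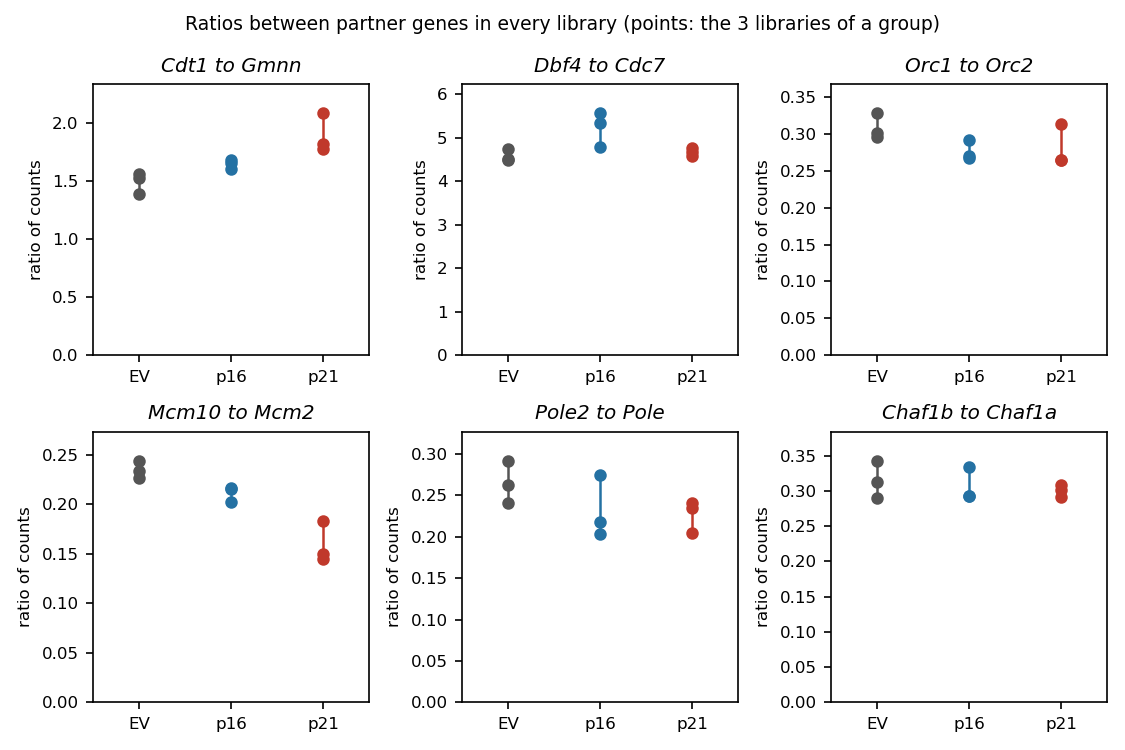
Ratio of counts (vertical axis, from 0, not corrected for length) between 6 pairs of partner genes in each of the 3 libraries of EV (grey), p16 (blue) and p21 (red), with lines joining the lowest and highest library. Cdt1 to Gmnn lies at 1.39 to 1.56 in EV and 1.78 to 2.09 with p21, Mcm10 to Mcm2 is lowest with p21, and Chaf1b to Chaf1a overlaps between all groups.

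Ratios of partner genes within a library do not depend on the library scaling. Beside Cdt1 to Gmnn, Dbf4 to Cdc7, Mcm10 to Mcm2 and Chaf1b to Chaf1a, 2 more pairs were measured. Orc1 to Orc2 was 0.296 to 0.328 in EV, 0.264 to 0.313 with p21 and 0.267 to 0.292 with p16. It overlapped EV with p21 and lay below EV with p16, at 0.896 times. Pole2 to Pole was 0.241 to 0.292 in EV, 0.205 to 0.241 with p21 and 0.203 to 0.274 with p16. It lay just below EV with p21, at 0.856 times, and overlapped EV with p16. Of Orc2's exon bases, 29.8% lie under Nif3l1 on the opposite strand, which bears on its ratio.

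Levels of different genes were compared per kilobase of merged exon. In EV, Pcna was highest at 55.5 CPM per kilobase, followed by 5 subunits of the helicase ring: Mcm4 at 33.8, Mcm6 at 31.97, Mcm5 at 28.3, Mcm3 at 28.2 and Mcm7 at 26.5. Mcm2 stood lower, at 14.7, with 6956 bases of merged exon beside 3752 in Mcm3. Before division by length, the mean CPM of these 2 genes in EV was close, at 103 and 106. The origin recognition genes spread from 17.97 for Orc6 to 2.61 for Orc5, with Orc2 at 12.2, Orc3 at 6.69, Orc4 at 5.04 and Orc1 at 4.15. The firing and activation genes spread as widely, from 19.8 for Gins4 and 13.6 for Topbp1 through Gins2 at 8.50, Cdc45 at 7.98, Dbf4 at 6.81 and Gins1 at 4.96 to Mcm10 at 3.13, Cdc7 at 3.10 and Gins3, lowest of the 50, at 2.503. With p21 the level of Pcna was 48.6, still the highest, and that of Mcm10 1.72, the lowest. These levels rest on 1 annotation's exons and are approximate.

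**Figure D5:**
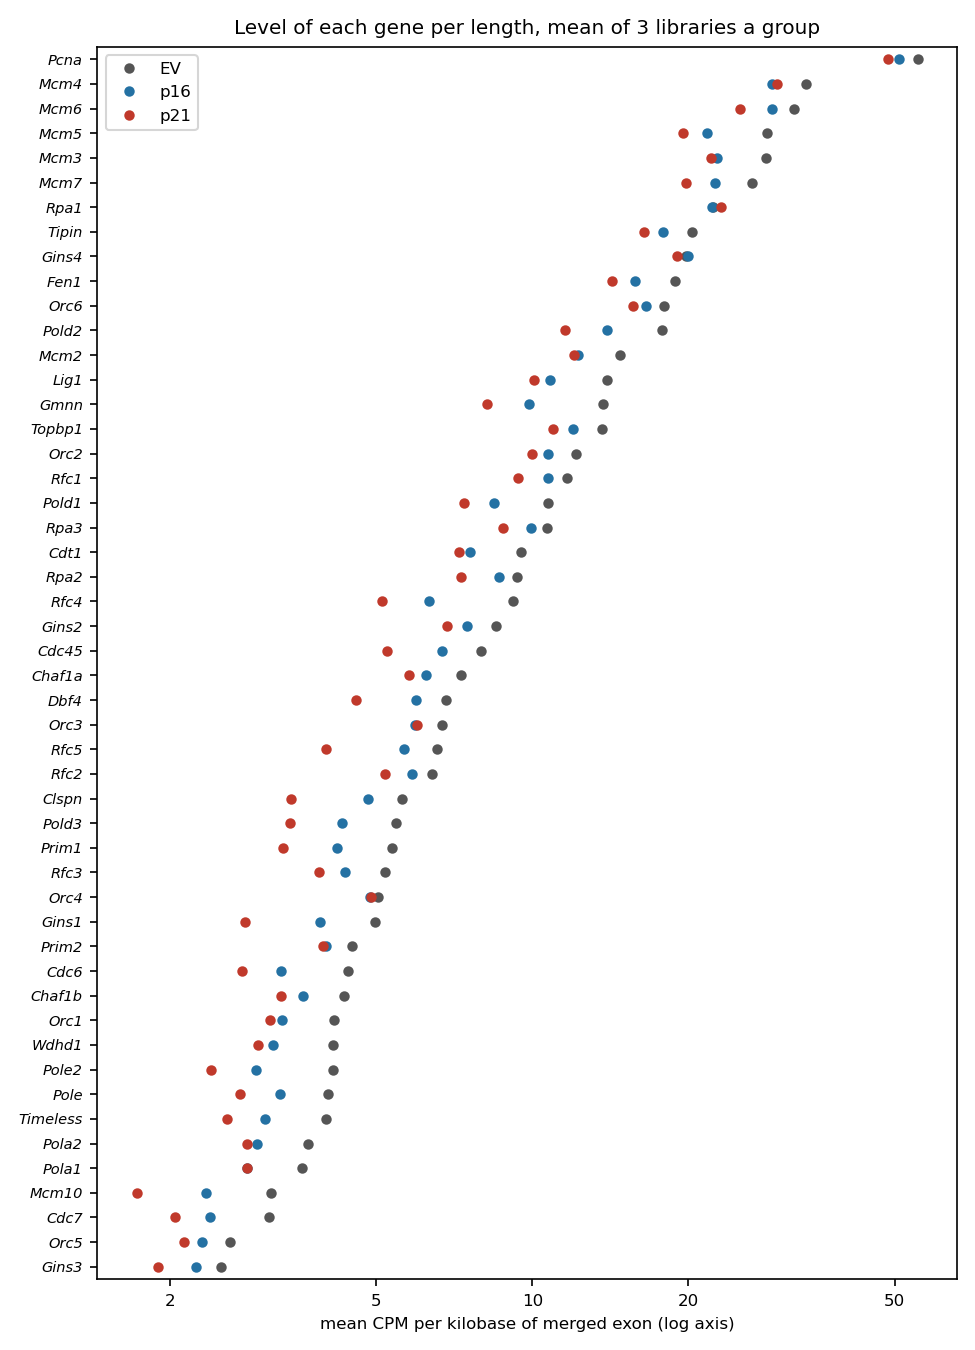
Mean CPM per kilobase of merged exon (horizontal axis, logarithmic) of the 50 replication genes, in order of their EV level, with EV in grey, p16 in blue and p21 in red; each point is the mean of 3 libraries. Pcna and 5 Mcm genes lead, and the gap between EV and p21 is wide for Mcm10, Rfc4 and Gins1 and close to nil for Orc4, Gins4 and Rpa1.

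Other genes of the pathway were read from 4 lists, whose counts stand beside the shares of all genes tested given above (20.1% lower and 19.8% higher with p21, 5.56% and 5.8% with p16, 6.91% and 6.15% with p21 against p16). Of 14 other licensing and firing genes, 11 fell and 2 rose with p21, and 6 fell and 0 rose with p16. Set directly against p16, 7 were lower and 0 higher with p21. At an unadjusted p under 0.05, 2 rose with p16, and DESeq2, limma-voom and the replicate block called 0 higher. In 2 of the 14, all p16 libraries lay above all EV libraries, beside 16.1% of all genes tested. With the block, 12 fell and 2 rose with p21, 9 fell with p16 and 9 were lower with p21 than with p16. Rif1, which times origin firing, fell with p21 by 36.6%, Ticrr, which brings Cdc45 to origins, by 43.2%, its partner Mtbp by 34.05% and the helicase Recql4 by 47.1%. With p16 these 4 fell by 26.4%, 15.2%, 14.1% and 27.4%. The 2 that rose with p21 were Cul4a (0.12 on the log2 scale, edgeR adjusted p = 0.00709) and Ddb1 (0.11, edgeR adjusted p = 0.00550), parts of the ubiquitin ligase that degrades Cdt1.

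Of 22 other fork and clamp loader genes, 16 fell and 1 rose with p21, and 9 fell and 1 rose with p16. Set directly against p16, 9 were lower and 0 higher with p21. With the replicate block, 16 fell and 1 rose with p21, and 12 fell and 1 rose with p16. The block gave 10 lower and 0 higher with p21 than with p16. Pclaf, a PCNA partner, fell from 94.9 CPM in EV to 48.7 with p21 and 67.8 with p16, with a p21 log2 fold change of -0.96 ± 0.051 (edgeR adjusted p = 7.58e-08). The nuclease Exo1, the fork repair gene Mms22l and the histone chaperone Asf1b fell with p21 by 39.5%, 33.9% and 33.1%. The gene that rose was Pold4, the smallest delta subunit, named here after its values were seen. It went from 15.7, 16.8 and 15.96 CPM in EV to 23.8, 21.9 and 23.1 with p21 and 20.9, 20.7 and 20.8 with p16, with both treated groups above EV. Its log2 fold change was 0.51 ± 0.052 with p21 (edgeR adjusted p = 1.18e-05) and 0.36 ± 0.052 with p16 (edgeR adjusted p = 0.00126), where the other delta subunits Pold1, Pold2 and Pold3 all fell. Of Pold4's exon bases, 24.6% overlap a second gene model of that strand, so part of its count is uncertain.

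The remaining lists hold checkpoint kinases and clamps, and polymerases of repair, lesion bypass and mitochondria. Of 10 fork checkpoint genes, 7 fell with p21, 3 with p16 and 1 was lower with p21 than with p16, and 0 were higher in any. In p21 against p16, 5 were lower at an unadjusted p under 0.05, 2 by DESeq2 and 1 by limma-voom. With the replicate block, 8 fell with p21, 4 with p16 and 4 were lower with p21 than with p16. These stand beside 24.2%, 10.1% and 11.6% of all genes tested, and 0 were higher. The kinase Chek1, which Clspn serves, fell by 46.04% with p21 and 32.8% with p16, and with p21 the ATR activator Etaa1 fell by 35.9%, the checkpoint clamp gene Hus1 by 29.2% and Atr by 19.1%. Of 14 DNA polymerases outside the replicative fork, 6 fell and 2 rose with p21. Their median log2 fold change was -0.08, beside -0.62 for the 5 polymerase delta and epsilon genes among the 50, Pold4 not included. With p16, 2 fell and 0 rose, and with p21 against p16, 4 were lower and 0 higher. Polq, an end-joining polymerase, fell by 49.9% with p21, and the translesion genes Rev3l, Rev1 and Polh by 21.8%, 18.8% and 18.3%. The 2 of 14 that rose were no larger a share than the 19.8% of all genes tested. They were the mitochondrial polymerase Polg (0.13, edgeR adjusted p = 0.0390) and the translesion polymerase Polk (0.13, edgeR adjusted p = 0.0242). With the replicate block, 4 of the 14 rose with p21 and 6 fell, beside 24.0% and 24.2% of all genes tested. In p21 against p16 the block gave 2 higher and 5 lower, beside 11.0% and 11.6%. With p16 the block gave 3 lower and 0 higher, beside 10.1% and 11.3%.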

How the data were processed

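The values deposited by the authors are raw counts per gene symbol for 9 libraries of mouse embryonic fibroblasts. Per the submitters' processing notes, reads were handled with TopHat2 2.0.14, Bowtie2 2.2.6 and featureCounts 1.4.6 on mm10; per the labels' protocols, RNeasy Micro RNA went into TruSeq v2 libraries, which do not mark strand. The gene annotation and the strand setting are not given in the sources used here.

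Counts were fitted with edgeR 4.0.16 in R 4.3.3 (TMM factors, filterByExpr at a minimum count of 10 and a total of 15, quasi-likelihood test, 3 groups in 1 fit, 6 residual degrees of freedom), with Benjamini-Hochberg adjusted p under 0.05 over 14223 genes as the call. The SE of a log2 fold change is its size divided by the root of F. CPM used the TMM-scaled library sizes. The coefficient of variation between replicates was 7.30%. Ratio tests were exact permutation tests (scipy 1.17.1). The fit was tested on simulated data. DESeq2 1.42.0, limma 3.58.1 (voom), other scalings, no filter, the replicate number as a block, replicates 1 and 2 alone and leaving out each library were alternatives.

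Every gene could be named under its subcomplex. Values in each library are given for Cdt1, Gmnn and the widest and narrowest change with p21 of each subcomplex, with others where a comparison turns on them. Other lists name up to 4 genes of smallest adjusted p with p21. The genes of those lists that rose (Cul4a, Ddb1, Pold4, Polg and Polk) were named besides, after their values were seen. The members and lists were chosen with earlier results of these data known. Exon lengths and overlaps are from GENCODE M21 (22750 of 24062 symbols matched, all 50 of the replication genes), sequences from RefSeq. Pclaf was matched by its older symbol.

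Same-numbered libraries of different groups had residual correlations of 0.126 to 0.361 over all genes tested in their 9 pairs, against -0.246 to 0.106 in the other 18, so the numbers were taken to pair the samples, and blocked values stand where they change a call. Over the 50 replication genes the same-numbered pairs ran from -0.0189 to 0.417 and the others from -0.322 to 0.238. Replicates differed by more than counting noise (chi-square per degree of freedom 5.26 to 16.9), so none was merged.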

Additional observations from a re-analysis of the deposited data

How the results depend on the processing

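Over 17 alternatives, 45 of the 47 p21 calls, 21 of the 35 p16 calls and 11 of the 20 calls of p21 against p16 held in every one, and no gene was called higher in any. The number lower was 46 to 47 with p21, 24 to 40 with p16 (43 with the replicate block) and 13 to 22 with p21 against p16 (26 with the block); leaving out a library gave 46 to 47, 24 to 37 and 13 to 21, the 13 without p16 replicate 1. The block changed no call other than those named beside the results. The mean log2 ratio of Mcm10 to Mcm2 in p21 against p16 went from -0.41 to -0.55 with replicates 1 and 2 alone. Library totals gave 617 higher and 1235 lower genes with p16 (825 and 791 otherwise) and 735 and 1254 in p21 against p16 (875 and 983 otherwise). Called genes never changed sign; values near 0 did. With library totals these were Gins4 in p16 against EV (-0.015) and, in p21 against p16, Orc3 (-0.0062), Orc4 (-0.015) and Pola1 (-0.016). With replicates 1 and 2 alone they were Orc4 in p16 against EV (0.0021) and, in p21 against p16, Mcm2 (0.055), Orc4 (-0.10) and Pola1 (-0.098). Ranges on leaving out a library that cross 0 were Orc4 -0.0931 to 0.0120 (p21 against EV), Orc4 -0.139 to 0.0107 (p16 against EV), Rpa1 -0.0312 to 0.0354 (p16 against EV), Mcm2 -0.0684 to 0.0428 (p21 against p16), Orc1 -0.174 to 0.00468 (p21 against p16), Orc3 -0.0162 to 0.0300 (p21 against p16), Orc4 -0.0596 to 0.0903 (p21 against p16), Pola1 -0.0579 to 0.0661 (p21 against p16) and Prim2 -0.0500 to 0.0220 (p21 against p16). The cause was not tested.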
